A study of Mus musculus with 25 samples.

Results

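*Gm31520* and *Gm44289* are annotated pseudogenes that lie side by side on mouse chromosome 6. Their RNA was close to absent from the soleus muscle of WT mice and was counted in every library of mice that lack *Dnmt3a* in muscle fibers (mD3AKO). They are described here with *Ndnf*, *Tnip3* and *Mad2l1*, protein-coding genes that flank them, which makes 5 of the 52636 genes in the count table. The pair was chosen by its measured difference between mD3AKO and WT libraries, so that this difference is described without a test. The 3 coding genes were chosen by their position and for being expressed. They are 3 of the 10 other genes within 1 Mb of the pair that were tested. All 5 genes were among the 16340 genes that passed the filter on low counts, *Gm31520* and *Gm44289* only through their counts in mD3AKO libraries.

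RNA was sequenced from 25 male and female C57BL/6 mice of 12 weeks, with 1 soleus and 1 library per mouse. Every mouse carried floxed alleles of *Dnmt3a* on both chromosomes, in which loxP sites surround exon 19. WT mice carried no Cre, and mD3AKO mice also carried a heterozygous Cre transgene under the muscle creatine kinase promoter (mCK-Cre), so that loss of *Dnmt3a* and presence of the transgene cannot be told apart. This promoter becomes active late in muscle differentiation and also works in heart. Recombination in the other cells of the muscle was not measured here. 5 WT and 7 mD3AKO mice were kept at rest on a sham treadmill, and 7 WT and 6 mD3AKO mice ran on a treadmill for 30 minutes and were killed 60 minutes later.

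A processed pseudogene is a copy of a messenger RNA that was reverse-transcribed and inserted elsewhere in the genome. Most such copies lack a promoter of their own and are silent or weakly transcribed. DNMT3A is one of the enzymes that place new methyl groups on cytosine in CpG dinucleotides, a mark often found on silent copies and repeats. Of the neighbours, *Ndnf* encodes a secreted neurotrophic and angiogenic factor, *Tnip3* a protein that binds A20 and restrains NF-kappaB signalling, and *Mad2l1* the MAD2 protein of the spindle checkpoint.

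In mm10, the build of the counts, *Gm44289* (ENSMUSG00000107695.1, processed pseudogene) spans chr6:66254743-66258205 and *Gm31520* (ENSMUSG00000107653.1, transcribed processed pseudogene) spans chr6:66264155-66284845. Both are on the plus strand with 5949 bases between them, and no other annotated gene overlaps either. *Gm44289* has 1 transcript of 1390 bases in 4 exon blocks. *Gm31520* has 3 transcripts, of which the longest (Gm31520-202, 1524 bases) joins a short first exon to the copy itself.

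The pair came from different parent genes. In a blastn search of all GENCODE transcripts, Gm31520-202 matched best to *Sc5d*, which encodes the lathosterol oxidase of cholesterol synthesis, over 96.3% of its length at 86.7% and 88.6% identity in 2 alignments. *Gm44289* matched best to *Senp5*, which encodes a protease that removes SUMO from proteins, over 80.6% of its length at 65.0% and 67.6% identity in 2 alignments. 0 alignments were found between the pair at an e-value under 1e-10. For each copy, a stretch without gaps inside the parent's coding sequence, chosen for its length up to 150 bases, is printed 5′ to 3′. The bases that differ between copy and parent are in capitals. Each stretch is more alike than the whole alignments above, and so understates how far the copy has moved from its parent. The first pair of lines is 150 bases long and differs at 11 of them (92.7% identity). It covers chr6:66283705-66283854 of *Gm31520*, in the second exon of Gm31520-202, and coding exons of *Sc5d* within chr9:42255753-42258584 on the minus strand. The second pair of lines is 113 bases long and differs at 27 of them (76.1% identity). It covers chr6:66256755-66256867 of *Gm44289*, in exon block 3, and coding exons of *Senp5* within chr16:31983616-31983864 on the minus strand. The lines are read from GENCODE transcripts:
Gm31520: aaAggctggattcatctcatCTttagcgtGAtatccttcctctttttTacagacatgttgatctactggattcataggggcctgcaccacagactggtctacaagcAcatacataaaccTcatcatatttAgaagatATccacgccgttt
Sc5d: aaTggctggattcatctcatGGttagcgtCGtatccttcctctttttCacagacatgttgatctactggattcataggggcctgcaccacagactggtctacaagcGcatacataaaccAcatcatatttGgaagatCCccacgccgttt
Gm44289: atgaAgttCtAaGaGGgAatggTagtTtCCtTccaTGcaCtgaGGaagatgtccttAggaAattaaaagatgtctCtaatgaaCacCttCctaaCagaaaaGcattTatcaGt
Senp5: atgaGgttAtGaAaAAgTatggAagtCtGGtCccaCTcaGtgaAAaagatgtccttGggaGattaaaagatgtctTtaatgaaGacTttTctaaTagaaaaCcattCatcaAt

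Of the 1771 different words of 31 bases in the transcripts of *Gm31520*, 75 (4.2%) also occur in *Sc5d* and none elsewhere. For *Gm44289*, 0 of 1360 words occur in any other gene. The share was 0.5% for *Ndnf*, 0.5% for *Tnip3* and 3.0% for *Mad2l1*. Their shared words are spread over 13, 3833 and 472 other genes. Reads of the pair can therefore be told from those of other annotated genes over most of their length.

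The libraries held between 22671457 and 37431801 counts, and at the median total a level of 1 CPM (counts scaled to a library of 1000000) rests on 32.2 reads. Mouse 15, an mD3AKO male at rest, had the fewest counts and 39.5% of them on ribosomal RNA rows, against 7.76% to 13.0% in the other 24 libraries. *Dnmt3a* was at 115 ± 17.6 CPM (SD, n = 5) in WT mice at rest, 117 ± 10.6 (n = 7) in WT mice after exercise, 43.4 ± 6.60 (n = 7) in mD3AKO mice at rest and 37.9 ± 3.30 (n = 6) in mD3AKO mice after exercise. Its highest mD3AKO value (53.9 CPM) was below its lowest WT value (93.4 CPM), so that the genotype labels fit the targeted gene in all 25 libraries. The defining genes of soleus fibers were high in every library, with summed levels of 8 markers between 63590 and 85410 CPM.

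*Gm31520* was at 0 counts in 11 of 12 WT libraries. The exception was mouse 11, a male at rest, with 1 count (0.0315 CPM). In mD3AKO mice at rest, the lowest of 7 libraries held 31 counts and the levels had a minimum of 1.23, a median of 2.17 and a maximum of 2.49 CPM. After exercise, the 6 mD3AKO libraries had a minimum of 0.925, a median of 2.03 and a maximum of 3.32 CPM. No WT library came near any mD3AKO library.

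*Gm44289* showed the same division with a few WT counts. At rest, the 5 WT libraries held 0, 0, 1, 1 and 1 counts, and the 7 WT libraries after exercise held 0, 0, 0, 0, 1, 1 and 3, so that the highest WT level was 0.0824 CPM (mouse 22). The 7 mD3AKO libraries at rest had a minimum of 1.07, a median of 1.53 and a maximum of 1.72 CPM, and the 6 after exercise a minimum of 0.990, a median of 1.47 and a maximum of 2.89 CPM. The lowest mD3AKO level was thus far above the highest WT level.

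**Figure D1:**
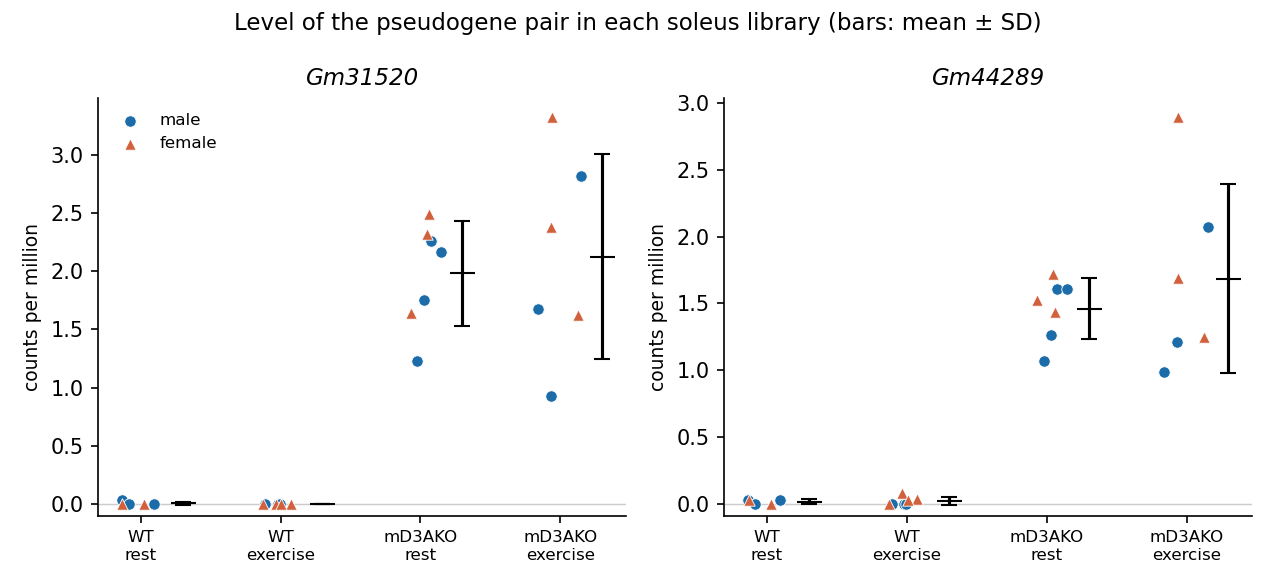
CPM (vertical axis) of *Gm31520* and *Gm44289* in each library, by genotype and exercise group (horizontal axis); blue circles are males, orange triangles are females, and black bars give the mean ± SD. The WT points lie at or near 0, with a maximum of 0.0824 CPM, and all 13 mD3AKO points lie at 0.925 CPM or above.

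Summed over libraries, *Gm31520* had 844 counts in mD3AKO and 1 in WT mice, or 2.04 and 0.00256 CPM on library totals. The ratio was 795, with an exact 95% interval of 142 to 31420 that covers counting error only. After exercise, where all WT libraries were at 0, the mD3AKO level was 156-fold that of a floor of 3 counts over the 7 WT libraries. The exact 95% interval of the ratio of mD3AKO to WT has a lower limit of 126 there. Without mouse 11, which held the only WT count, the mD3AKO level was 244-fold that of 3 counts over the WT group. No exact limit was computed for it. *Gm44289* had 643 counts in mD3AKO and 8 in WT mice, or 1.55 and 0.0205 CPM on library totals, a ratio of 75.7 (95% interval 38.2 to 176). Its ratio was 80.9 (27.4 to 394) at rest and 74.2 (31.5 to 230.2) after exercise, where 3 of the 5 WT counts came from mouse 22 and the ratio without it was 157. The same difference was present in each sex. For *Gm44289* the ratio was 131 (36.1 to 1091) in males and 57.5 (26.2 to 158) in females. For *Gm31520* it was 340 (60.7 to 13470) in males. In females, with WT at 0, the mD3AKO level of *Gm31520* was 153-fold that of 3 counts over the WT group (exact lower limit of the ratio 124). Without mouse 22 the ratio of *Gm44289* in females was 94.0, and without mouse 11 or 14 that in males was 221 or 219, all within the intervals given. Without mouse 11 the mD3AKO level of *Gm31520* in males was 95.5-fold that of 3 counts over the WT group, again without an exact limit. These left-out values were chosen after seeing the data.

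These values are those the pair was chosen by and carry no test. For scale, 44 of the 16340 genes (0.269%) were called for genotype by edgeR's quasi-likelihood test at an adjusted p under 0.05, 37 of them (0.226%) as higher in mD3AKO mice. In 7 genes (0.0428%), the pair among them, every mD3AKO library was above every WT library. In bulk RNA, transcription of the pair in a few cells cannot be told apart from a low level in many.

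Per kilobase of annotated exon, the pair was at a like level in mD3AKO muscle, with means of 1.14 CPM per kb for *Gm31520* and 1.13 CPM per kb for *Gm44289*. On the same scale *Sc5d*, the parent of *Gm31520*, was at 4.96 CPM per kb. Among the coding neighbours in the same mice, *Mad2l1* was at 0.167, *Ndnf* at 0.126 and *Tnip3* at 0.0308 CPM per kb. The pair thus stood above all 3 coding neighbours per length of annotated exon in mD3AKO muscle and below them in WT muscle, where *Gm44289* was at 0.0144 and *Gm31520* at 0.00146 CPM per kb. Annotated exon length sums all transcripts of a gene, including the long ends of the coding genes, and so lowers their level per kb where short forms are used.

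The pair did not pass the test for a response to exercise within mD3AKO mice. *Gm31520* was at 1.98 ± 0.453 CPM (SD, n = 7) at rest and 2.12 ± 0.881 (n = 6) after exercise, a log2 fold change of 0.10 (SE 0.25, adjusted p = 0.898, edgeR). *Gm44289* was at 1.46 ± 0.225 and 1.68 ± 0.708 CPM, a log2 fold change of 0.21 (SE 0.25, adjusted p = 0.765, edgeR). The groups overlapped throughout for both genes, and the values after exercise were more spread than those at rest. Both fold changes fell below 0 without mouse 6, which had the highest level of each gene, at -0.072 for *Gm31520* and -0.016 for *Gm44289*. In the same contrast, 984 genes (6.02%) were called. Leaving out mouse 15 left mean levels at rest of 1.95 ± 0.488 CPM for *Gm31520* and 1.44 ± 0.236 for *Gm44289* (n = 6).

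The pair did not pass the test for a difference between male and female mD3AKO mice either. *Gm31520* was at 1.83 ± 0.645 CPM in 7 males and 2.30 ± 0.630 in 6 females, a log2 fold change (male over female) of -0.32 (SE 0.26, adjusted p = 0.61, edgeR with 8 groups). *Gm44289* was at 1.40 ± 0.380 and 1.75 ± 0.585 CPM, a log2 fold change of -0.30 (SE 0.24, adjusted p = 0.607). Leaving out single libraries moved these values to between -0.56 (without mouse 19) and -0.16 (without mouse 10) for *Gm31520* and between -0.48 (without mouse 19) and -0.097 (without mouse 6) for *Gm44289*. In this contrast 416 of 17389 genes (2.39%) were called. The fold changes of *Ndnf* (-0.36, SE 0.34, adjusted p = 0.673), *Tnip3* (0.36, SE 0.59, adjusted p = 0.84) and *Mad2l1* (-0.12, SE 0.15, adjusted p = 0.787) did not pass it. Over left-out libraries, that of *Ndnf* ran from -0.70 (without mouse 7) to -0.20 (without mouse 17) and that of *Mad2l1* from -0.21 (without mouse 7) to -0.056 (without mouse 3). That of *Tnip3* became -0.28 without mouse 7 and -0.65 without mouse 19.

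Within the 13 mD3AKO mice, the levels of the pair went together. Across these libraries, which share no mouse, log2 CPM of *Gm31520* and *Gm44289* had a Pearson r of 0.80 (p = 0.00104, adjusted p = 0.00936 over 9 relations, permutation test, 2-sided) and a Spearman rho of 0.82 (p = 0.00106, adjusted p = 0.00954, permutation test). The relation held without mice 7 and 10, the farthest from the median of *Gm31520* (r = 0.87). It was weaker without mouse 6, the highest for each gene (r = 0.75, adjusted p = 0.0413, permutation test), and without mouse 7 alone (r = 0.77, adjusted p = 0.0442). The relation was also present among the 7 mice at rest (r = 0.80) and the 6 after exercise (r = 0.82). In these 13 libraries, other genes reached an r of up to 0.94 with the mean of the pair, as given below. The ratio of *Gm31520* to *Gm44289* counts within a library ranged from 0.763 to 1.74 with a median of 1.35, and was above 1 in 12 of 13 libraries. Corrected for exon length, its median was 1.04.

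**Figure D2:**
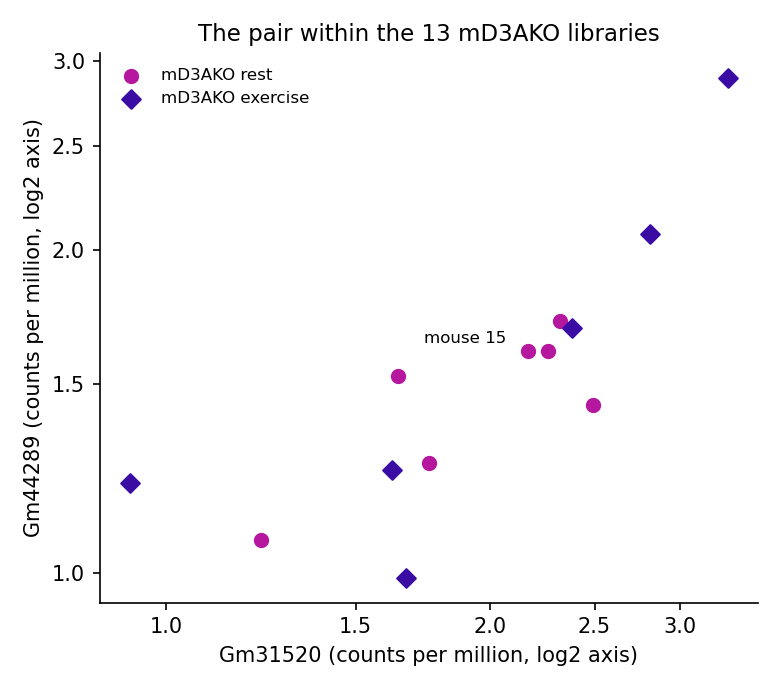
CPM of *Gm44289* (vertical axis) against *Gm31520* (horizontal axis), both on log2 axes, in the 13 mD3AKO libraries; magenta circles are mice at rest and dark blue diamonds mice after exercise, and mouse 15 is labelled. The levels rise together (r = 0.80), and the mouse with the highest *Gm31520* (3.32 CPM) also has the highest *Gm44289* (2.89 CPM).

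The other 8 relations did not pass. Residual *Dnmt3a* had r = -0.057 with *Gm31520* and r = -0.15 with *Gm44289* (adjusted p = 0.985 for both, permutation test). *Dnmt3a* was counted over the whole gene, while the loxP sites surround a single exon. Reads of the other exons can remain in recombined fibers and were not told apart from reads of intact *Dnmt3a*. A relation of the pair to the level of intact *Dnmt3a* was therefore not tested. For *Gm31520*, r with *Dnmt3a* was 0.55 in the 7 mice at rest and -0.76 in the 6 after exercise, and the difference between these values was not tested. With *Ndnf*, *Tnip3* and *Mad2l1*, r was between -0.20 and 0.05 for the pair, each with an adjusted p of 0.985 in the permutation test. Their Spearman rho was between -0.20 and 0.27 (adjusted p from 0.908 to 0.921, permutation test).

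The parent genes were expressed in every library of both genotypes. *Sc5d* was at 24.5 ± 1.11 CPM (SD) in 12 WT mice and 24.1 ± 2.63 in 13 mD3AKO mice, a log2 fold change for genotype of -0.031 (SE 0.05, adjusted p = 1.0, edgeR). *Senp5* was at 15.5 ± 0.816 and 16.0 ± 1.86 CPM, a log2 fold change of 0.06 (SE 0.04, adjusted p = 0.94, edgeR). Neither passed the test for genotype, with values that overlapped between WT and mD3AKO libraries. *Senp5* rose after exercise by a log2 fold change of 0.16 (SE 0.04, adjusted p = 0.00899, edgeR), and *Sc5d* was at -0.074 (SE 0.05, adjusted p = 0.413). *Sc5d* held 9718 counts in WT mice, in which *Gm31520* held 1, so that at most 1 read of the parent was counted on the copy in these 12 libraries.

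Close to the pair, counts were low in both genotypes. Within 300 kb lie 10 further annotated genes besides *Mad2l1*, of which no single one exceeded 2 counts over the 12 WT libraries or 5 over the 13 mD3AKO libraries. Together they held 4 counts in WT and 17 in mD3AKO mice. Within 1 Mb of the pair, 51 other genes are annotated, 33 had a count and 10 were tested. 0 of these 10 were called for genotype, in either direction, and 0 for exercise, by edgeR. Over all tested genes 0.269% and 10.4% were called, so that 0 of 10 does not set these genes apart. Their log2 fold changes for genotype ranged from -0.20 (*Gm9794*, a pseudogene, SE 0.10, adjusted p = 0.857) to 0.39 (*Tnip3*), with a median of 0.04 beside 0.007 over all tested genes. Windows of 0.5 Mb and 2 Mb held 3 and 13 tested genes besides the pair, again with 0 called for genotype, and with 0 and 1 called for exercise.

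**Figure D3:**
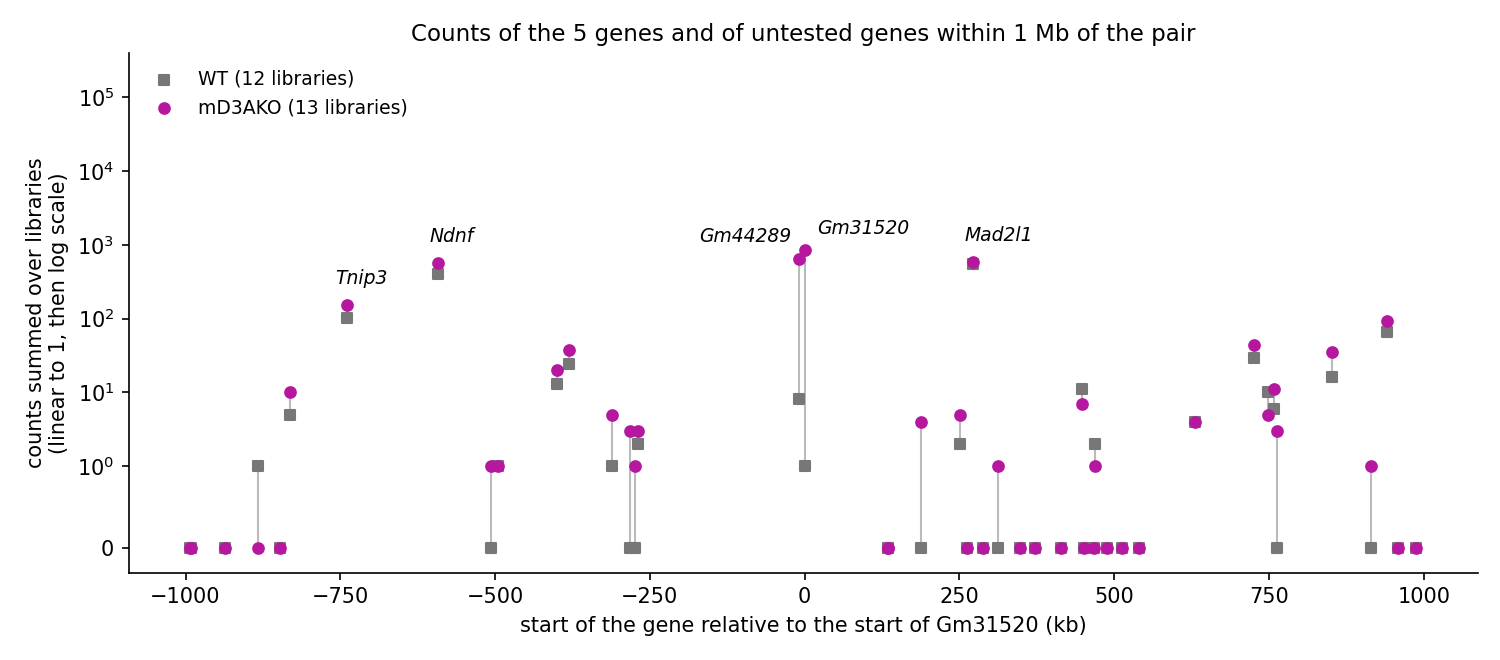
Counts of the 5 genes described and of the 41 annotated genes within 1 Mb that were too low to be tested, summed over 12 WT libraries (grey squares) and 13 mD3AKO libraries (magenta circles), on a vertical axis that is linear up to 1 and logarithmic above, against the distance of the gene's start from that of *Gm31520* in kb; a line joins the values of 1 gene. *Gm31520* (1 and 844 counts) and *Gm44289* (8 and 643) have long lines, while *Ndnf*, *Tnip3* and *Mad2l1* have WT and mD3AKO points close together.

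*Mad2l1* (ENSMUSG00000029910.14, chr6:66535390-66547220, plus strand) starts 250.5 kb past the end of *Gm31520*. It was at 1.46 ± 0.242 CPM (SD, n = 5) in WT mice at rest, 1.37 ± 0.240 (n = 7) in WT mice after exercise, 1.36 ± 0.258 (n = 7) in mD3AKO mice at rest and 1.45 ± 0.213 (n = 6) in mD3AKO mice after exercise. The 12 WT libraries ran from 1.04 to 1.76 CPM with a median of 1.38, and the 13 mD3AKO libraries from 0.952 to 1.87 with a median of 1.36. All 4 groups overlapped. The log2 fold change was -0.006 for genotype (SE 0.11, adjusted p = 1, edgeR) and -0.0024 for exercise (SE 0.11, adjusted p = 0.996), and the signs of these near-zero values changed with single libraries.

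*Ndnf* (ENSMUSG00000049001.5, chr6:65671590-65712326, plus strand) ends 542.4 kb before the start of *Gm44289*. It was at 1.15 ± 0.234 CPM (SD, n = 5) in WT mice at rest and 1.52 ± 0.861 (n = 7) in mD3AKO mice at rest. After exercise it was at 0.889 ± 0.343 (n = 7) and 0.984 ± 0.418 (n = 6). At rest, the WT libraries ran from 0.826 to 1.42 CPM, and the mD3AKO libraries from 0.560 to 2.88 with a median of 1.25. The log2 fold change was 0.29 for genotype (SE 0.24, adjusted p = 0.968, edgeR), and 0.18 without mouse 7. For exercise it was -0.51 over both genotypes (SE 0.24, unadjusted p = 0.0408, adjusted p = 0.205, edgeR) and -0.66 within mD3AKO mice (SE 0.33, adjusted p = 0.298), and without mouse 15 these values were -0.57 (adjusted p = 0.117) and -0.76 (adjusted p = 0.162), and without mouse 7 they were -0.40 and -0.43, with adjusted p from 0.117 to 0.723 and from 0.16 to 0.79 over all alternatives run. After exercise 4 of 5 endothelial and 2 of 6 satellite cell markers were called as lower, while 0 of 6 fibroblast markers were called (median -0.38), and their part in the value of *Ndnf* was not tested. In the exercise contrast over both genotypes, 1699 genes (10.4%) were called.

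*Tnip3* (ENSMUSG00000044162.12, chr6:65525313-65634040, plus strand), 620.7 kb before the start of *Gm44289*, was the lowest of the 3, with 1 to 40 counts per library. It was at 0.316 ± 0.129 CPM (SD, n = 5) in WT mice at rest, 0.208 ± 0.103 (n = 7) in WT mice after exercise, 0.381 ± 0.378 (n = 7) in mD3AKO mice at rest and 0.284 ± 0.331 (n = 6) in mD3AKO mice after exercise. The WT libraries ran from 0.0940 to 0.519 CPM and the mD3AKO libraries from 0.0665 to 1.02, with a median of 0.228 in WT and 0.131 in mD3AKO mice. Most mD3AKO libraries were low and a few were high, so that mean and median differed in direction. The log2 fold change was 0.39 for genotype (SE 0.43, adjusted p = 0.995, edgeR), 0.01 without mouse 19 and -0.18 in females alone. For exercise it was -0.56 (SE 0.42, adjusted p = 0.516, edgeR), -0.94 without mouse 19 and -0.33 without mouse 7.

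None of the 3 coding neighbours passed the test for an interaction of genotype and exercise. The differences of their responses (mD3AKO minus WT) were -0.30 for *Ndnf*, 0.07 for *Tnip3* and 0.18 for *Mad2l1*, each with an adjusted p of 1 (edgeR). The value of *Ndnf* became -0.069 without mouse 7 and -0.48 without mouse 23, that of *Tnip3* -0.69 without mouse 19, and that of *Mad2l1* 0.094 without mouse 3. Over all genes, 0 of 16340 (0%) were called for the interaction by edgeR and 0 by DESeq2, with 403 genes at an unadjusted p under 0.05 in edgeR.

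**Figure D4:**
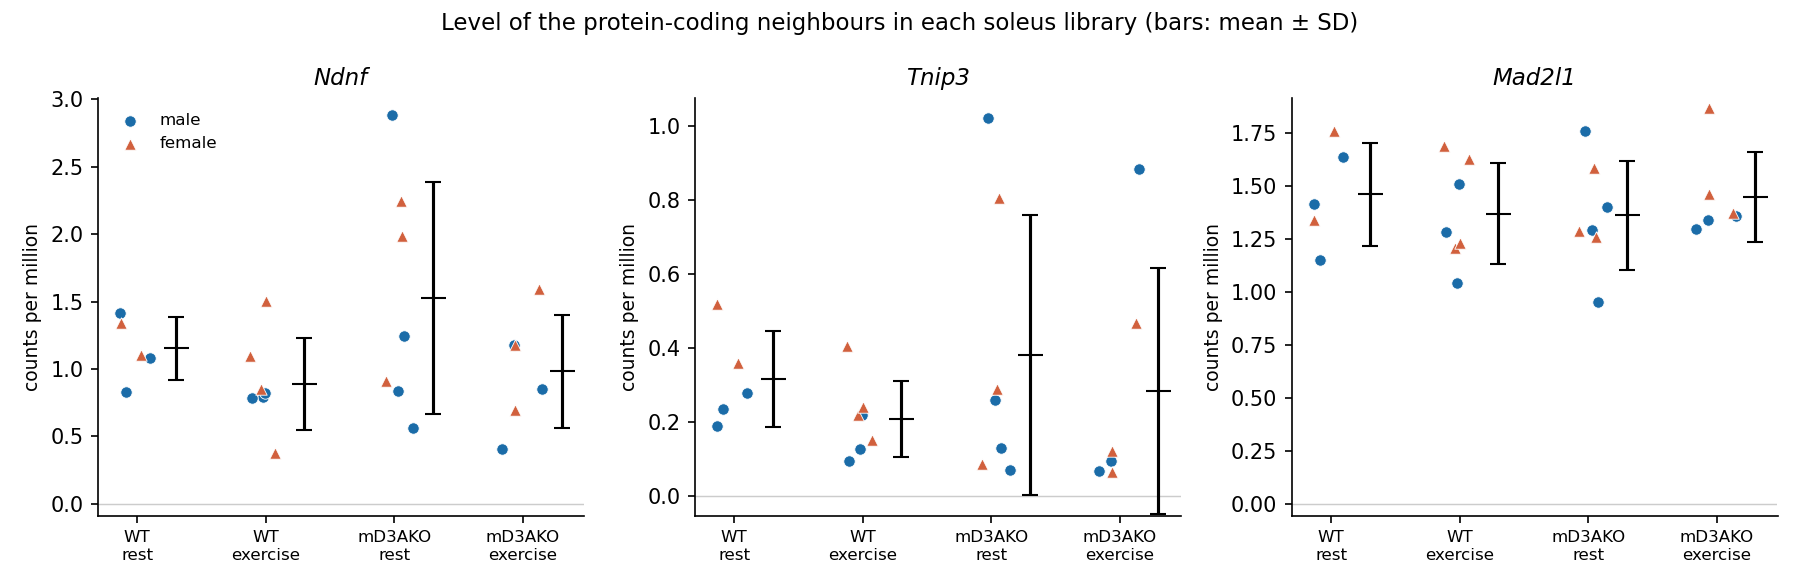
CPM (vertical axes, each with its own range) of *Ndnf*, *Tnip3* and *Mad2l1* in each library, by genotype and exercise group (horizontal axis); blue circles are males, orange triangles are females, and black bars give the mean ± SD. The 4 groups overlap for each gene, and the mD3AKO mice at rest reach 2.88 CPM for *Ndnf* and 1.02 CPM for *Tnip3* in mouse 7.

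The highest values of *Ndnf* and *Tnip3* were in libraries with high marker sums of other cells, but not every such library was high. Mice 7, 21 and 24, all mD3AKO at rest, had the highest *Ndnf* of all 25 libraries (2.88, 2.24 and 1.99 CPM) and the highest sums of 6 fibroblast markers (4413, 2729 and 2314 CPM), against 938 to 2222 CPM in WT mice. Mice 7, 19 and 24 had the highest *Tnip3* (1.02, 0.882 and 0.805 CPM), and their sums of 6 immune markers were 40.7, 56.5 and 28.6 CPM, against 9.65 to 26.1 CPM in WT mice. Mouse 21 had an immune sum of 29.1 CPM, above that of mouse 24, with *Tnip3* at only 0.290 CPM. WT mouse 20 had *Tnip3* at 0.519 CPM with an immune sum of 17.25 CPM. The part of these cells in the values of *Ndnf* and *Tnip3* was not tested. *Gm31520* was at 1.23 (mouse 7), 2.82 (mouse 19), 2.32 (mouse 21) and 2.49 CPM (mouse 24), beside a median of 2.17 over the 13 mD3AKO libraries. In the same order, *Gm44289* was at 1.07, 2.07, 1.72 and 1.43 CPM, beside a median of 1.53. A relation of the pair to these marker sums was not tested.

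The summed levels of the marker lists overlapped between the genotypes. Of 6 satellite cell markers, *Pax7*, the transcription factor of satellite cells, rose in mD3AKO mice by a log2 fold change of 0.48 (SE 0.10, adjusted p = 0.0384, edgeR). The other 5 were not called, and the summed satellite level ranged from 49.6 to 65.6 CPM in WT and from 44.6 to 68.2 CPM in mD3AKO mice. 0 of the tested markers of fibroblasts (6), endothelium (5), immune cells (4), adipocytes (4), Schwann cells (4), red blood cells (3) and soleus fibers (8) were called for genotype, as against 0.269% of all tested genes, so that these counts do not set the lists apart. Their median log2 fold changes lay between -0.69 (adipocytes) and 0.19 (immune cells).

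By likeness of pattern, the genes nearest to the mean log2 CPM of the pair over all 25 libraries were *Myh8*, the perinatal myosin heavy chain (Pearson r = 0.91), *Eya4*, a developmental transcription cofactor (0.90), *Kcne1l*, a potassium channel subunit (0.90), *Mttp*, the microsomal triglyceride transfer protein (0.89), and *Ctxn3*, a cortexin (0.89). All 5 were called as higher in mD3AKO mice, the contrast that also chose the pair. *Dnmt3a* had the most negative value of all tested genes (r = -0.96), which the choice of the pair by genotype fixes in direction. Within the 13 mD3AKO libraries another set came first: *9130227L01Rik* (0.94), *Gm15523* (0.91), *Morf4l1*, which encodes a chromatin protein (0.87), *Adat2*, a tRNA deaminase subunit (0.86), and *Zfp383*, a zinc finger gene (0.84). None of these 5 was called for genotype, with log2 fold changes between -0.21 and 0.07. These values describe the libraries, which share depth and normalization.

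Of the lists of genes around the members, only that of DNA methylation held a gene called for genotype, the deleted *Dnmt3a* itself. Of 23 genes of sterol synthesis, the pathway of *Sc5d*, all were tested and 0 were called for genotype, as against 0.269% of all tested genes, with a median log2 fold change of -0.01. After exercise, 3 of them fell and 0 rose, and the median log2 fold change of the list was -0.152, beside -0.0009 over all tested genes. Over all 16340 tested genes, 10.4% were called for exercise, 767 as lower and 932 as higher. The list as a whole was not tested. The genes that fell were *Sqle*, squalene epoxidase, by 0.64 on the log2 scale (SE 0.17, adjusted p = 0.0138), *Lss*, lanosterol synthase, by 0.40 (SE 0.09, adjusted p = 0.00428), and *Dhcr7*, the last reductase of the pathway, by 0.27 (SE 0.08, adjusted p = 0.0358, edgeR). Of 22 genes of A20 and NF-kappaB signalling, the setting of *Tnip3*, 0 were called for genotype (median 0.03), which at 0.269% of all genes does not set the list apart. For exercise, 2 were called, close to the 10.4% of all tested genes. *Nfkbia*, the inhibitor IkappaB-alpha, rose by 0.74 (SE 0.06, adjusted p = 3.29e-09) and *Tnfaip3*, which encodes A20, fell by 0.84 (SE 0.12, adjusted p = 1.19e-05, edgeR).

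Of 18 genes of the spindle checkpoint and cell division, the setting of *Mad2l1*, 11 were tested. 0 were called for genotype, as against 0.269% of all tested genes, with a median of -0.004. For exercise 1 was called, close to the 10.4% over all genes: *Mad2l1bp*, whose protein binds MAD2, was higher (log2 fold change 0.33, SE 0.08, adjusted p = 0.00412, edgeR). Of 8 enzymes of DNA methylation, 7 were tested and only *Dnmt3a* was called for genotype, at -1.52 (SE 0.07, adjusted p = 1.52e-13). *Tet2*, a dioxygenase that oxidizes methylcytosine, rose after exercise by 0.45 (SE 0.09, adjusted p = 0.00139, edgeR). Over all tested genes, the median log2 fold change was 0.007 for genotype and -0.0009 for exercise.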

How the data were processed

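RNA counts of 25 soleus libraries were analysed. The deposited values are counts of reads per gene without normalization, and 0 columns belonged to other samples. The submitters' processing notes name FastQC 0.11.5, STAR 2.5.3a, featureCounts 1.5.3 and mm10, and the methods name GENCODE version 15. The library kit was stranded and reads were 75-base pairs. Whether counting used the strand is not given in the sources used here, so antisense reads could enter a gene. Symbols and transcripts came from GENCODE version 21, which named 52489 of 52636 genes.

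Genes kept by filterByExpr (minimum count 10, minimum total 15, 4 groups) were fitted in edgeR 4.0.16 (R 4.3.3) with TMM normalization and 1 mean per group, and contrasts were tested by quasi-likelihood F. Genotype and exercise were averaged over the other factor. Sex within mD3AKO mice was tested with 8 groups. Benjamini-Hochberg adjustment ran over the whole tested table, with a call at 0.05. SE is the log2 fold change over the square root of F. CPM use TMM-scaled library sizes, and ratios of summed counts use library totals. Relations used log2 CPM with a prior count of 2 and 100000 permutations (SciPy). Transcripts were compared with blastn 2.17.0+. Intervals of ratios are exact conditional binomial intervals at 95%. The fit was also run on simulated data, with no outcome reported here. Alternatives were DESeq2 1.42.0, other scalings, filters and models, each sex alone, and leaving out each library.

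All 67 pairs of replicates differed by more than sampling noise. Each library is 1 mouse. Males have mouse numbers from 7 to 19, so sex and number cannot be told apart. The members, gene lists and rules for named genes (the members, tested genes within 1 Mb, *Dnmt3a*, *Sc5d*, called list genes and the 5 genes most like the pair) were chosen with earlier results of these data known. *Senp5* was added as the best sequence match. The study's other assays were not analysed here, and 1 gene of the region is not reported here.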

Additional observations from a re-analysis of the deposited data

Results flagged for a closer look

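Within the 4 groups, the highest and lowest library of each of the 5 genes was compared with the others by Dixon's ratio, in 19 sets of libraries whose values were not all equal. Chance would mark about 5% of such sets, and 2 were marked. *Gm31520* was at 0.0315 CPM in mouse 11, a WT male at rest, while the other 4 libraries of its group were at 0. This value is a single count beside zeros, where the ratio is 1.0 whatever the count and the chance rate does not apply, and it is among the values the pair was chosen by. *Mad2l1* was at 1.87 CPM in mouse 3, an mD3AKO female after exercise, while the next highest of its group was at 1.46 CPM.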

How the results depend on the processing

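Mean levels of the pair in mD3AKO mice stayed within 1 SD of the reported value under every scaling, filter, sex subset and left-out library run (1.76 to 2.39 CPM for *Gm31520* and 1.35 to 1.82 CPM for *Gm44289*), and r between them stayed between 0.75 and 0.88. *Ndnf*, *Tnip3* and *Mad2l1* did not pass the tests for genotype, exercise or interaction, nor any member those for exercise and sex within mD3AKO mice, under any alternative run, and 0 genes were called for the interaction under each. Counts of called genes moved. Against 44 for genotype, library totals gave 29, DESeq2 81, sex as a term 72, blocks of mouse numbers 97, males alone 23 and females alone 6. Against 1699 for exercise, library totals gave 927, males alone 966 and females alone 512. Against 984 for exercise in mD3AKO mice, these gave 484, 630 and 184. Against 416 for sex, library totals gave 227 and DESeq2 738, and leaving out single libraries gave 245 (without mouse 3) to 663 (without mouse 7), with 270 without mouse 24.

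The signs of these fold changes turned only where the reported value was within its SE of 0. *Tnip3* gave -0.0122 (library totals) and -0.084 (females alone) for the interaction, with -0.69 to 0.51 over left-out libraries, and -0.18 for genotype in females. Its sex difference ran from -0.65 to 0.95 over left-out libraries. *Mad2l1* gave 0.0013 (additive model) and 0.034 (females) for exercise, 0.0008 (males) for genotype and -0.033 (males) for exercise in mD3AKO mice, and ran from -0.044 to 0.037 for exercise and -0.05 to 0.032 for genotype over left-out libraries. The exercise response of *Gm31520* in mD3AKO mice was -0.029 in males and -0.072 to 0.26 over left-out libraries, and that of *Gm44289* -0.016 to 0.32. Over left-out libraries, r of *Gm31520* ran from -0.20 to 0.12 with *Dnmt3a*, -0.32 to 0.0096 with *Ndnf*, -0.18 to 0.25 with *Tnip3* and -0.16 to 0.16 with *Mad2l1*, and r of *Gm44289* from -0.35 to 0.12, -0.51 to 0.025, -0.36 to 0.075 and -0.024 to 0.24. The causes were not tested. *Tnip3* has no value with a filter of 1 CPM in 5 libraries or in males alone, where it did not pass the filter. Its sex difference in DESeq2 (0.33) has no adjusted p, so that it was neither passed nor failed there. No paired analysis was possible because each mouse number occurs once.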
